A study of Mus musculus with 9 samples.

Results

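Collagen chain genes were read from expression arrays of 3 mouse fibroblast lines. A member was any probe set (a group of short DNA probes against 1 transcript) whose only gene symbol was Col, digits, a and digits, as in Col1a1. This gave 58 of 22690 probe sets, which stand for 36 of the 12393 genes named by exactly 1 symbol. The chains were sorted into fibrillar (9 genes, 17 probe sets), basement membrane type IV (6 genes, 9 probe sets), type VI (3 genes, 4 probe sets) and all others (18 genes, 28 probe sets). Affymetrix mouse arrays were hybridised with RNA from NIH 3T3 (genotype wild type), a mouse embryo fibroblast line, and from its derivatives SV5 and SV5 NN4. SV5 is a stable clone carrying SV40 (simian virus 40) large T antigen, a viral oncoprotein that binds the tumour suppressors p53 and Rb. SV5 NN4 is a stable clone carrying SV40 large T antigen and wt Nras, the unmutated form of a small GTPase that relays growth factor signals. The 3 lines grew in medium with calf serum, and each has 3 arrays. Each derivative is 1 clone, so the genotype and the history of that clone cannot be told apart. The labels do not say whether the replicates are separate cultures. The p-values therefore reflect spread between arrays, possibly only technical. In the main test this is the spread left once line and replicate number are fitted.

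Collagens are proteins whose chains wind in threes into a rigid triple helix. Types I, III, V and XI assemble into banded fibrils. Type IV forms the open network of basement membranes, and type VI forms beaded filaments between fibrils and cells. A type VI molecule in its classical form holds 1 chain each of alpha 1, alpha 2 and alpha 3, and type III is built from Col3a1 alone. Loss of collagen production by fibroblasts after transformation is a long-known theme in cell biology.

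At the brightest probe set of each gene, the type VI genes and Col3a1 were those called lower in SV5 NN4 than in SV5, so the DNA just before their transcription starts is shown. Each sequence holds the 250 bases upstream of the start that RefSeq gives on GRCm38.p6, written 5′ to 3′ on the gene's own strand. The windows are chr10:76726045-76726294 (minus strand) for Col6a1, chr10:76623631-76623880 (minus) for Col6a2, chr1:90843972-90844221 (minus) for Col6a3 and chr1:45311288-45311537 (plus) for Col3a1. Capitals mark matches on either strand to any of 4 motifs: the CAAT box, spelled CCAAT; the GC box, spelled GGGCGG; the TATA box, spelled TATAAA; and the AP-1 type element, spelled TGANTCA. No marked matches overlap.
Col6a1: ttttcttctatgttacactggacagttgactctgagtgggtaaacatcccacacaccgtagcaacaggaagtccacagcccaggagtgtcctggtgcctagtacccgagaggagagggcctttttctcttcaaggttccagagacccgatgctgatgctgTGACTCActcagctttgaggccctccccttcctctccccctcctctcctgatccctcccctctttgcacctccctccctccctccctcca
Col6a2: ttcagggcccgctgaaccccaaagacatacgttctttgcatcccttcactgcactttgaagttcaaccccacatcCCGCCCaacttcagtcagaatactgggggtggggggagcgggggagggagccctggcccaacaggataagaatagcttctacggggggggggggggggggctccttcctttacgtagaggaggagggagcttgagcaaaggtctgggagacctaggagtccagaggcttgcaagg
Col6a3: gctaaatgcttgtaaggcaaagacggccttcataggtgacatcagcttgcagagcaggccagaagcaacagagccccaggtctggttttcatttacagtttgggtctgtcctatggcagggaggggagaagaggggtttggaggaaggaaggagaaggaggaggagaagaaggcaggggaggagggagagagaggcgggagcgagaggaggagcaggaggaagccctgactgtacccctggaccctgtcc
Col3a1: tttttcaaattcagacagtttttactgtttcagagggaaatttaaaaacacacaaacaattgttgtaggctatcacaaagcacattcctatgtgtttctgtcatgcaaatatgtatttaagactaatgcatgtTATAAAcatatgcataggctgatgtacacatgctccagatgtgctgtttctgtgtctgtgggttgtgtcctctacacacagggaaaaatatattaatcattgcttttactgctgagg
The Col6a1 window held 1 TGANTCA match, the Col6a2 window 1 GGGCGG match read from the other strand, the Col3a1 window 1 TATAAA match, and the Col6a3 window none of the 4. G and C made up 56% of the bases for Col6a1, 59.2% for Col6a2, 57.2% for Col6a3 and 35.2% for Col3a1. RefSeq windows were found for 27 of the 36 chain genes. CCAAT occurred in 11 of these 27 against 33.8% of all 32851 windows, and GGGCGG in 15 against 32.7%. TATAAA occurred in 5 against 12.4%, and TGANTCA in 1, that of Col6a1, against 6.75%. The 4 genes thus shared no motif of the set. A match describes letters and not a site in use.

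The values are intensities, used as log2(intensity + 1), so 1 unit is a 2-fold difference. A gene is given by its brightest probe set. The median level of all probe sets was 5.93, and bacterial control probe sets, whose targets mouse cells lack, read 3.18 to 4.25. All 36 chain genes read above these controls in their highest line, and 20 read above the median level: 7 fibrillar, 4 type IV, 3 type VI and 6 others. The other 16 had line means between 4.31 and 5.91, and none of them passed the test in any comparison. They included cartilage chains such as Col2a1 and Col10a1 and the epidermal Col17a1. Over the arrays, 9 of 10 fibroblast markers read above the median level; no other cell type's list had more than 1 such member, and none of those lists had a called member. Median intensity was 56.2 to 62.4 per array. Nras itself read 8.18 ± 0.36 in SV5 and 8.24 ± 0.21 in SV5 NN4 (SD, n = 3) at its brightest probe set. That difference was 0.06, with a 95% interval of -0.28 to 0.4, so the arrays did not separate the 2 clones at this gene; whether the probes match the added Nras was not tested.

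Differences were tested with limma, fitting line and replicate number together on all 9 arrays, because the plan for these chains pairs equal replicate numbers. Arrays with equal numbers also deviated together. Called means a Benjamini-Hochberg adjusted p under 0.05 over all probe sets. The plot of each array's level shows the chains with the most to read.

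**Figure D1:**
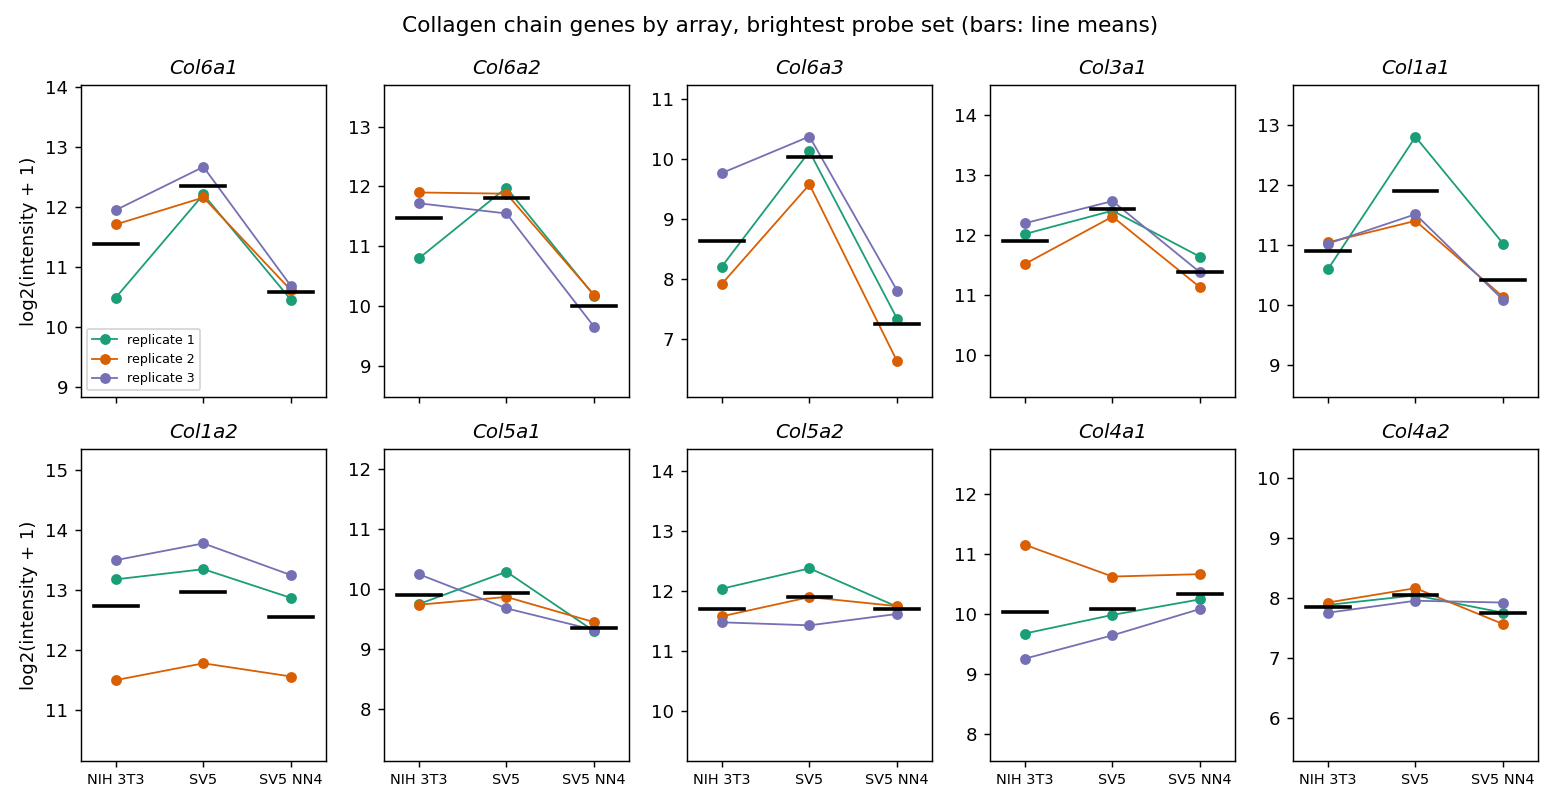
Levels of chain genes on each array, by line (x axis) and log2(intensity + 1) (y axis); points are single arrays, linked by replicate number, and bars are line means. Every panel spans the same number of log2 units, though from a different start. In the type VI panels all SV5 NN4 arrays lie below all SV5 arrays, as in Col3a1, Col1a1, Col5a1 and Col4a2. In the Col1a2 panel the replicate 2 arrays lie below all other arrays.

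Type VI was the group in which every chain fell from SV5 to SV5 NN4: 3 of 3 genes were called lower, with differences from -2.77 to -1.77 and a median of -1.79. Over all chains 4 of 36 genes were called lower in this comparison, where 0.678% of all genes were, and 0 were called higher, where 0.371% were. At an unadjusted p under 0.05 there were 11 lower and 0 higher, where 7.33% and 7.32% of all genes were. Without the replicate block limma called 0 of 36 (0.0888% of all genes). At an unadjusted p under 0.05 that fit had 8 lower and 0 higher, where 316 and 321 of 12393 genes were.

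Col6a3, the longest of the classical type VI chains, read 8.21, 7.92 and 9.77 on the NIH 3T3 arrays, 10.13, 9.58 and 10.38 on the SV5 arrays and 7.34, 6.63 and 7.81 on the SV5 NN4 arrays (replicates 1, 2 and 3). The SV5 NN4 arrays lay below every array of both other lines, while SV5 and NIH 3T3 overlapped. From SV5 to SV5 NN4 Col6a3 fell by 2.77 ± 0.25 (SE), with a 95% interval of -3.35 to -2.19 and an adjusted p of 0.0091. This is a 6.82-fold lower intensity, and the pairs gave -2.79, -2.95 and -2.57. In bulk RNA, fewer cells that make a transcript and less of it per cell cannot be told apart.

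Col6a1 encodes the alpha 1 chain. It read 10.49, 11.71 and 11.95 on the NIH 3T3 arrays, 12.21, 12.16 and 12.67 on the SV5 arrays and 10.45, 10.61 and 10.68 on the SV5 NN4 arrays. All SV5 arrays were above all others, and SV5 NN4 overlapped only the low first NIH 3T3 array. The fall from SV5 to SV5 NN4 was 3.41-fold (-1.77 ± 0.26 SE, interval -2.39 to -1.15, adjusted p = 0.038).

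Col6a2 encodes the alpha 2 chain and lies next to Col6a1 on chromosome 10. It read 10.8, 11.9 and 11.72 on the NIH 3T3 arrays, 11.98, 11.88 and 11.55 on the SV5 arrays and 10.18, 10.19 and 9.66 on the SV5 NN4 arrays. SV5 and NIH 3T3 overlapped, and SV5 NN4 was below both. The fall from SV5 was 3.46-fold (-1.79 ± 0.28 SE, interval -2.45 to -1.13, adjusted p = 0.043), and its other probe set fell by 1.87 (adjusted p = 0.042).

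The calls of Col6a1 and Col6a2 sat close to the threshold, and that of Col6a3 further below it. All of these calls were lost without the replicate block. The adjusted p without the replicate block was 0.25 for Col6a1, 0.17 for Col6a2 and 0.21 for Col6a3. Col6a1, Col6a2 and Col3a1 each lost their call without NIH 3T3 replicate 2 (adjusted p 0.063, 0.078 and 0.054) and without any single SV5 or SV5 NN4 array, at adjusted p up to 0.26, 0.29 and 0.24, all reached without SV5 NN4 replicate 3. Col6a3 lost its call without SV5 replicate 1 (0.063) or 2 (0.06), or SV5 NN4 replicate 2 (0.09) or 3 (0.099). The count of chains called lower was 7 without NIH 3T3 replicate 1 and 1 without replicate 2. It was 0, 0 and 1 without SV5 replicates 1, 2 and 3, and 1, 0 and 0 without SV5 NN4 replicates 1, 2 and 3. Calls over all 22690 probe sets went from 196 to 950 without NIH 3T3 replicate 1 and to 102 without replicate 2. They were 21, 24 and 22 without SV5 replicates 1, 2 and 3, and 42, 14 and 17 without those of SV5 NN4. The difference of Col6a3 stayed between -3.02 and -2.63 whichever array was left out. The 3′ over 5′ signal of Actb and Gapdh, a sign of RNA integrity and labelling, was higher in SV5 NN4 than in SV5 in each of the 3 pairs. For Actb the log2 ratios were 3.73, 4.32 and 2.42 in SV5 and 4.07, 4.63 and 3.66 in SV5 NN4; the part of this in the collagen differences was not tested.

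**Figure D2:**
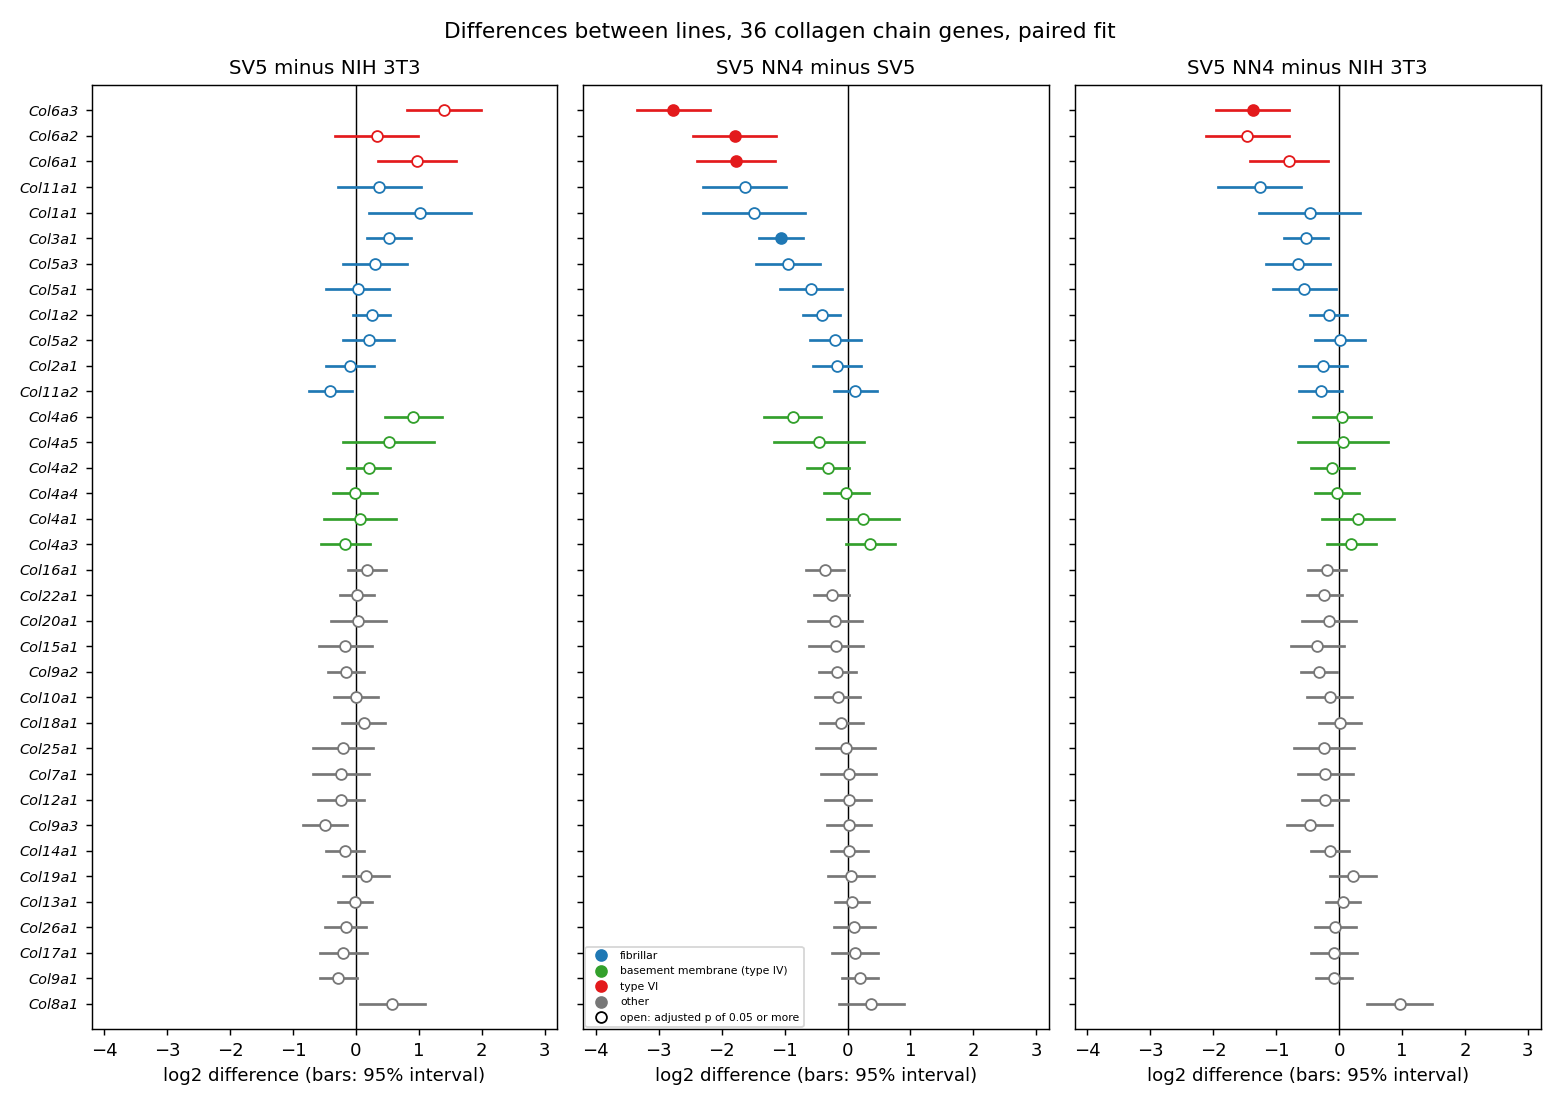
Log2 differences of all 36 chain genes (rows) in the 3 comparisons, with 95% intervals from the paired limma fit; colours give the chain group and filled points are called. In SV5 NN4 minus SV5 the 3 type VI chains and Col3a1 are filled, and the 18 chains of the group of others stay between -0.36 and 0.37.

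The fibrillar chains lay lower in SV5 NN4 than in SV5 at 8 of 9 genes, where 5925 of all 12393 genes did. Only 1 of the 9 was called, where 0.678% of all genes were called lower. The fibrillar median difference was -0.58 (pair medians -0.78, -0.41 and -0.53), beside 0.01 for all genes. Col3a1, the chain of type III fibrils in soft tissue, read 12.01, 11.51 and 12.19 on the NIH 3T3 arrays, 12.4, 12.3 and 12.56 on the SV5 arrays and 11.63, 11.12 and 11.37 on the SV5 NN4 arrays. SV5 stood above both other lines, which overlapped each other at 1 array. Col3a1 fell by 1.05 ± 0.15 (SE), a 2.07-fold lower intensity with an interval of -1.4 to -0.7 and an adjusted p of 0.034; without the block that p was 0.31. Its dimmer probe set gave -1.35, which was not called (adjusted p = 0.13).

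Col11a1, which encodes a chain of the minor fibrils that nucleate thicker ones, gave the largest fibrillar difference. Its brightest probe set averaged 6.93 ± 0.49 in SV5 and 5.3 ± 0.79 in SV5 NN4 (SD, n = 3), a difference of -1.63 that missed the threshold (limma, adjusted p = 0.055). The second probe set read 6.07, 6.05 and 5.87 on the NIH 3T3 arrays, 7.15, 6.1 and 6.8 on the SV5 arrays and 4.68, 4.52 and 4.14 on the SV5 NN4 arrays. No line overlapped another there. It fell by 2.24 ± 0.23 (SE) from SV5 to SV5 NN4 (adjusted p = 0.013) and was the only collagen probe set also called without the replicate block (adjusted p = 0.039). At the level of probe sets, 6 of 58 collagen probe sets were called lower, against 0.555% of all. The Col11a1 call was lost on leaving out SV5 replicate 1 or 3 (0.076 and 0.079) or SV5 NN4 replicate 1, 2 or 3 (0.063, 0.077 and 0.13).

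Type I collagen, the main fibril former of connective tissue, pairs alpha 1 with alpha 2 chains. Col1a1 read 10.59, 11.04 and 11.02 on the NIH 3T3 arrays, 12.8, 11.4 and 11.51 on the SV5 arrays and 11.02, 10.13 and 10.08 on the SV5 NN4 arrays. SV5 did not overlap the others, with replicate 1 well above its fellows. Its difference from SV5 to SV5 NN4 was -1.49 ± 0.34 (SE), which was not called (adjusted p = 0.11). The second Col1a1 probe set gave -0.1 (interval -0.71 to 0.52), so the probe sets of this gene disagreed by 1.39, the widest gap among the 19 genes with several probe sets.

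Col1a2 showed a different layout. It read 13.18, 11.5 and 13.5 on the NIH 3T3 arrays, 13.35, 11.78 and 13.78 on the SV5 arrays and 12.87, 11.56 and 13.25 on the SV5 NN4 arrays. Replicate 2 was low in every line, and the lines overlapped throughout. Replicate number took 95.2% of its variance and line 4.03%. The SV5 NN4 difference from SV5 was -0.41 ± 0.13 (SE, adjusted p = 0.2), and the second probe set gave -0.75 (adjusted p = 0.054).

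Type V chains regulate the width of type I fibrils. Col5a1 differed by -0.58 (interval -1.08 to -0.09, adjusted p = 0.3), Col5a2 by -0.2 (interval -0.6 to 0.21) and Col5a3 by -0.95 (adjusted p = 0.11). None of these was called, though the SV5 NN4 arrays of Col5a1 and Col5a3 lay below every SV5 array at the brightest probe set. The second Col5a3 probe set gave 0, with overlap. That of Col5a2 gave -0.61 (interval -1.17 to -0.06) and the other Col5a1 probe sets -0.34 and -0.8, all without overlap and not called. The cartilage chain Col11a2 was the 1 fibrillar gene above 0, at 0.12 (interval -0.22 to 0.47).

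The type IV network chains gave no call in any comparison. From SV5 to SV5 NN4 their median difference was -0.16, from -0.87 to 0.36, with 1 of 6 genes lower at an unadjusted p under 0.05 in limma's paired fit, where 7.33% of all genes were, and 0 without the block. Col4a1, which with Col4a2 makes the common basement membrane trimer, averaged 10.03 ± 1 on the NIH 3T3 arrays, 10.08 ± 0.5 on the SV5 arrays and 10.33 ± 0.3 on the SV5 NN4 arrays (SD, n = 3). Its interval for SV5 NN4 minus SV5, -0.33 to 0.81, lies above the values of the type VI chains. Col4a2 differed by -0.31 (interval -0.64 to 0.03, adjusted p = 0.45), with all SV5 NN4 arrays below all SV5 arrays. Col4a6 read 6.62, 6.86 and 8.36 in SV5 and 5.72, 6.48 and 7.01 in SV5 NN4. These overlapped, and the difference of -0.87 was not called (adjusted p = 0.099). Its neighbour Col4a5 gave -0.45, and Col4a3, a chain of specialised membranes such as the glomerular one, gave 0.36. The second probe sets of Col4a6 and Col4a5 gave -0.33 and -0.82, and neither was called.

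The remaining 18 chains, which belong to network, transmembrane, fibril-associated and other types, had a median difference of 0.02 between the clones, and 0 were called. At an unadjusted p under 0.05 limma had 1 of 18 lower and 0 higher, no larger a share than the 7.33% and 7.32% of all genes, and without the block 0. The lowest value was -0.36 (interval -0.66 to -0.06), in Col16a1. Col8a1, a short-chain network collagen, gave 0.37 (interval -0.14 to 0.89), the highest of the group.

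The clones also separated without a test. In SV5 NN4, 11 of 36 chain genes had every array below every SV5 array, where 4.32% of all genes did, and 0 had every array above, where 4.74% did. By pairs, 16 were lower in 3 of 3, where 20.6% of all genes were. Over all 36 genes the median difference was -0.16 (SD 0.08 over the 3 pair medians).

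**Figure D3:**
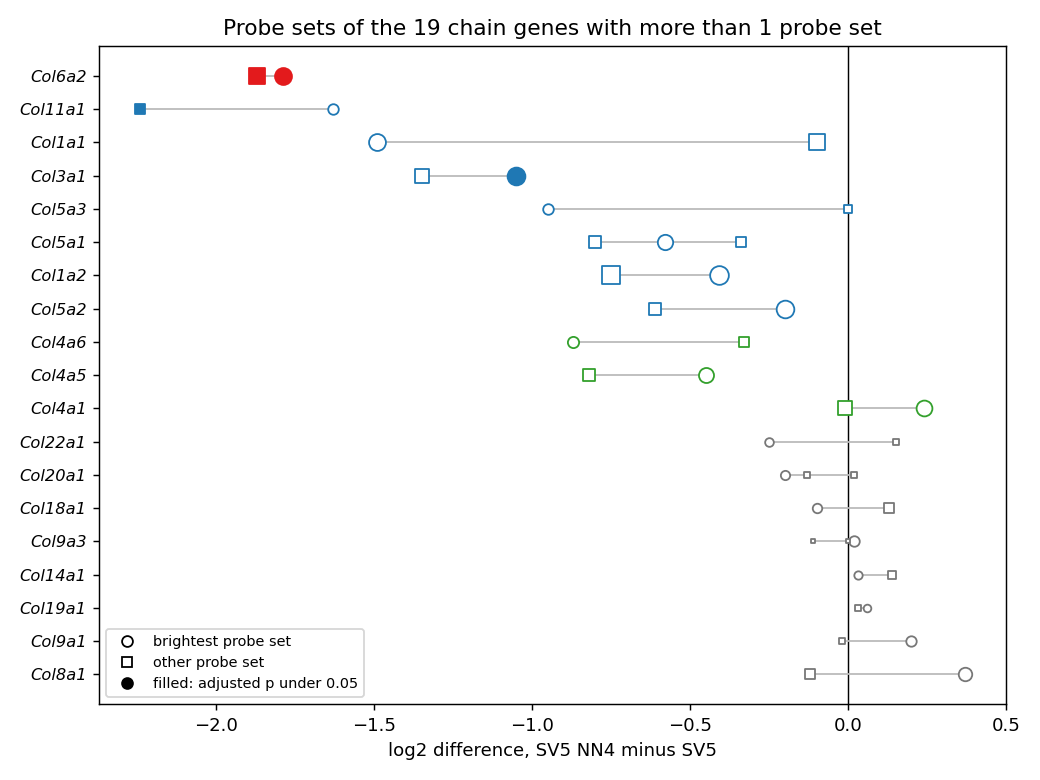
Log2 difference SV5 NN4 minus SV5 (x axis) at each probe set of the 19 chain genes with more than 1; circles are the brightest probe set, squares the others, larger symbols are brighter, filled symbols are called, and colours are fibrillar blue, type IV green, type VI red and others grey. The Col6a2 pair lies together near -1.8, whereas the Col1a1 pair lies 1.39 apart.

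All probe sets of a gene had the same sign at 12 of these 19 genes for SV5 NN4 minus SV5, at 15 for SV5 NN4 minus NIH 3T3 and at 9 for SV5 minus NIH 3T3. In 6 pairs of chain genes no protein-coding gene lies between the members in RefSeq's order. The type VI neighbours Col6a2 and Col6a1 gave -1.79 and -1.77 from SV5 to SV5 NN4, close to each other, whereas Col3a1 and its neighbour Col5a2 gave -1.05 and -0.2. Col4a1 and Col4a2 gave 0.24 and -0.31, Col4a4 and Col4a3 -0.02 and 0.36, Col4a6 and Col4a5 -0.87 and -0.45, and Col9a1 and Col19a1 0.2 and 0.06. These closeness readings depend on the probe set. Second probe sets gave -1.87 in Col6a2, -1.35 in Col3a1, -0.61 in Col5a2 and -0.01 in Col4a1. Those of Col4a6, Col4a5, Col9a1 and Col19a1 gave -0.33, -0.82, -0.02 and 0.03.

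SV5 against NIH 3T3 compares the T antigen clone with the parent line. Here limma called 0 of 36 chain genes, where 0.0484% of all genes were called, and 0 without the block (0.00807% of all genes). At an unadjusted p under 0.05 there were 6 higher and 2 lower, where 9.07% and 5.95% of all genes were. Without the block there were 4 higher and 0 lower, where 234 and 133 of 12393 genes were. The median difference over the chains was 0.04 (SD 0.15 over the pair medians), beside -0.03 for all genes. Actb 3′ over 5′ signal was higher in NIH 3T3 than in SV5 in each pair, with NIH 3T3 log2 ratios of 4.25, 4.43 and 5.06. For Gapdh NIH 3T3 replicate 3 stood apart, at 36.9-fold against 5.14 to 11.5-fold on the other arrays; the part of this in the comparisons with NIH 3T3 was not tested. In 4 chains every SV5 array was above every NIH 3T3 array (2.31% of all genes), and in 0 below (2.27%). These 4 were Col6a1, Col1a1, Col3a1 and Col4a2, named after their values were seen.

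Type VI had a median of 0.97 in this comparison, above those of the other chain groups, with pair medians of 1.73, 0.45 and 0.61. Col6a3 gave 1.4 (interval 0.81 to 1.98, adjusted p = 0.12), Col6a1 0.97 (interval 0.35 to 1.59, adjusted p = 0.19) and Col6a2 0.33 (interval -0.33 to 0.99). Without NIH 3T3 replicate 1 the Col6a2 difference was -0.09. Among fibrillar genes Col1a1 gave 1.01 (adjusted p = 0.26), with pairs of 2.21, 0.35 and 0.48. It gave 0.49 without NIH 3T3 replicate 1 and 0.65 without SV5 replicate 1, and 0.12 as the mean of its probe sets. Its second probe set read 10.65, 9.51 and 10.04 in NIH 3T3 and 9.31, 9.4 and 9.16 in SV5. That probe set lay lower in SV5 without overlap, by -0.78 (limma, adjusted p = 0.26), so Col1a1 had no settled direction here. Both Col1a2 probe sets were higher in each pair, and neither was called. The second of these gave 0.5 (interval 0.2 to 0.81, limma, adjusted p = 0.17). Col3a1 gave 0.52 (adjusted p = 0.2), Col1a2 0.25 and Col5a2 0.21, while Col5a1 gave 0.03 (interval -0.47 to 0.53) and turned to -0.07 under quantile normalization. The lowest fibrillar value was -0.41 in Col11a2.

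Type IV gave a median of 0.13 in SV5 against NIH 3T3, from -0.17 in Col4a3 to 0.91 in Col4a6 (adjusted p = 0.14). Col4a1 gave 0.06, which became 0 under quantile normalization and -0.18 as the mean of its probe sets, and Col4a2 gave 0.2. The second probe sets gave 0.95 in Col4a5, 0.56 in Col4a6 and -0.42 in Col4a1, none of them called. That of Col4a6 lay higher in SV5 and that of Col4a1 lower, both without overlap. Among the others Col8a1 was highest at 0.58 (adjusted p = 0.3) and the cartilage chain Col9a3 lowest at -0.49 (adjusted p = 0.22).

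SV5 NN4 against NIH 3T3 covers both added genes together and shares arrays with the comparisons above. At the brightest probe set 1 of 36 chain genes was called lower (0.686% of all genes) and 0 higher (1.27%), with 9 lower and 1 higher at an unadjusted p under 0.05 (8.04% and 11.3% of all genes). That gene was Col6a3, at -1.37 ± 0.25 (SE, interval -1.96 to -0.79, limma, adjusted p = 0.049). Without the block 0 were called (0.0807% of all genes). At an unadjusted p under 0.05 that fit had 5 lower and 1 higher, where 265 and 418 of 12393 genes were. The Col6a3 call was lost whichever array was left out other than NIH 3T3 replicate 1, at adjusted p up to 0.25 without SV5 NN4 replicate 3. The count of called chains was 5 without NIH 3T3 replicate 1. Over all 22690 probe sets, calls rose from 375 to 1239 with that array left out.

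The type VI partners were not called: Col6a2 gave -1.46 (adjusted p = 0.057) and Col6a1 -0.8 (adjusted p = 0.19). Without NIH 3T3 replicate 1 both were called, at -1.88 (adjusted p = 0.0029) and -1.18 (adjusted p = 0.011), and Col1a1 was too, at -1 (adjusted p = 0.018). Col6a2 was also called with the filter on dim probe sets (0.034) and with an intensity trend (0.046). Col11a1 gave -1.26 (adjusted p = 0.083), and its second probe set fell by 1.55 (adjusted p = 0.032), 1 of 2 probe sets of 58 called lower where 0.516% of all were. That call was lost without NIH 3T3 replicate 2 (0.12) or 3 (0.067), SV5 replicate 1 (0.054) or any SV5 NN4 array (0.13, 0.13 and 0.22). The other fibrillar chains gave smaller values, with Col3a1 at -0.53 (adjusted p = 0.13), Col5a1 at -0.55, Col1a1 at -0.47 and Col1a2 at -0.16. Col5a2 gave 0.01 (interval -0.39 to 0.41), -0.05 under quantile normalization and -0.32 as the mean of its probe sets.

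Type IV had a median of 0.05 between SV5 NN4 and NIH 3T3, from -0.11 in Col4a2 to 0.3 in Col4a1. Col4a1 became -0.06 as the mean of its probe sets. Col8a1 read 7.79, 8.14 and 7.32 on the NIH 3T3 arrays, 8.79, 8.02 and 8.2 on the SV5 arrays and 8.87, 8.87 and 8.39 on the SV5 NN4 arrays. It was the 1 chain whose SV5 NN4 arrays all lay above the NIH 3T3 arrays (3.85% of all genes); 3 chains lay below without overlap (3.26%). The Col8a1 difference of 0.96 was not called (adjusted p = 0.087), and its second probe set gave -0.39. Col9a3 gave -0.47, the lowest of its group.

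The share of variance that went with the line also differed between chain groups as a description. Over all genes line took a median of 14.9% and replicate number 60.4%; over the 36 chains the medians were 19.3% and 55.8%. For type VI the line took a median of 79.2%, for fibrillar chains 45%, for type IV 25.7% and for the others 10.9%. Line outweighed replicate number in 11 of 36 chains, against 20% of all genes.

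Collagen needs enzymes and partners to be made, and these were read from 6 lists. In SV5 against NIH 3T3 limma called 0 of their 65 measured genes with or without the block, with 14 higher and 2 lower at an unadjusted p under 0.05. Over all genes 0.0484% were called with the block, and 9.07% were higher and 5.95% lower at that unadjusted p. From SV5 to SV5 NN4, 7 of the 65 were called lower and 0 higher, where 0.678% and 0.371% of all genes were. At an unadjusted p under 0.05, 23 were lower and 4 higher, where 7.33% and 7.32% of all genes were. Of 12 hydroxylation and glycosylation genes 1 was called lower and 0 higher, with 5 lower and 1 higher at an unadjusted p under 0.05. This was Crtap, a partner of the prolyl 3-hydroxylase, which averaged 9.48 ± 0.41 in SV5 and 6.86 ± 0.43 in SV5 NN4 (SD, n = 3). Crtap fell by 2.62 (limma, adjusted p = 0.0019, and 0.028 without the block). Of 9 folding and export genes 0 were called, with 4 lower and 0 higher at an unadjusted p under 0.05 and a median of -0.38.

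Of 9 genes that trim propeptides or crosslink fibrils, Lox alone was called, the lysyl oxidase that crosslinks collagen, with 2 higher and 1 lower at an unadjusted p under 0.05. The 2 higher were the transglutaminase gene Tgm2 at 1.37 (limma, adjusted p = 0.083) and the lysyl oxidase homologue Loxl4 at 0.91 (adjusted p = 0.15), named after their values were seen. Lox fell from 13.01 ± 0.27 to 11.78 ± 0.14 (SD, n = 3), by 1.23 (limma, adjusted p = 0.022). Among 10 receptors and uptake genes 0 were called, with 1 higher and 1 lower at an unadjusted p under 0.05. Among 10 degradation genes Mmp14, a membrane-bound collagenase, fell by 1.21 (adjusted p = 0.025), with 3 lower and 0 higher at an unadjusted p under 0.05. Of 15 fibril regulators, 4 were called lower, where 0.678% of all genes were. They were Postn (-3.53), Dcn (-3.43), Aspn (-3.37) and Thbs2 (-1.68), at limma adjusted p from 0.025 to 0.036. At an unadjusted p under 0.05, 9 were lower and 0 higher, where 7.33% and 7.32% of all genes were. The same shares apply to the other lists in this comparison. Dcn and Aspn are small leucine-rich proteoglycans that bind collagen, and Postn and Thbs2 are matricellular proteins. The median of that list was -0.64, and 12 of 15 were below 0, where 5925 of 12393 genes were. Of the 7 called genes over all lists, Crtap alone was also called without the replicate block; for the other 6 that adjusted p was 0.22 to 1.

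Against NIH 3T3, SV5 NN4 had 5 of the 65 called lower and 0 higher (0.686% and 1.27% of all genes), with 13 lower and 8 higher at an unadjusted p under 0.05 (8.04% and 11.3% of all genes). The 5 were Crtap (-2.04), Ctsk (-1.46), Mmp14 (-0.87), Dcn (-3.33) and Postn (-2.78). Ctsk encodes cathepsin K, a protease that cleaves triple-helical collagen. Without the replicate block limma gave adjusted p of 0.12 to 0.78 for these 5. The lists were drawn up with earlier results known and are not independent evidence.

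**Figure D4:**
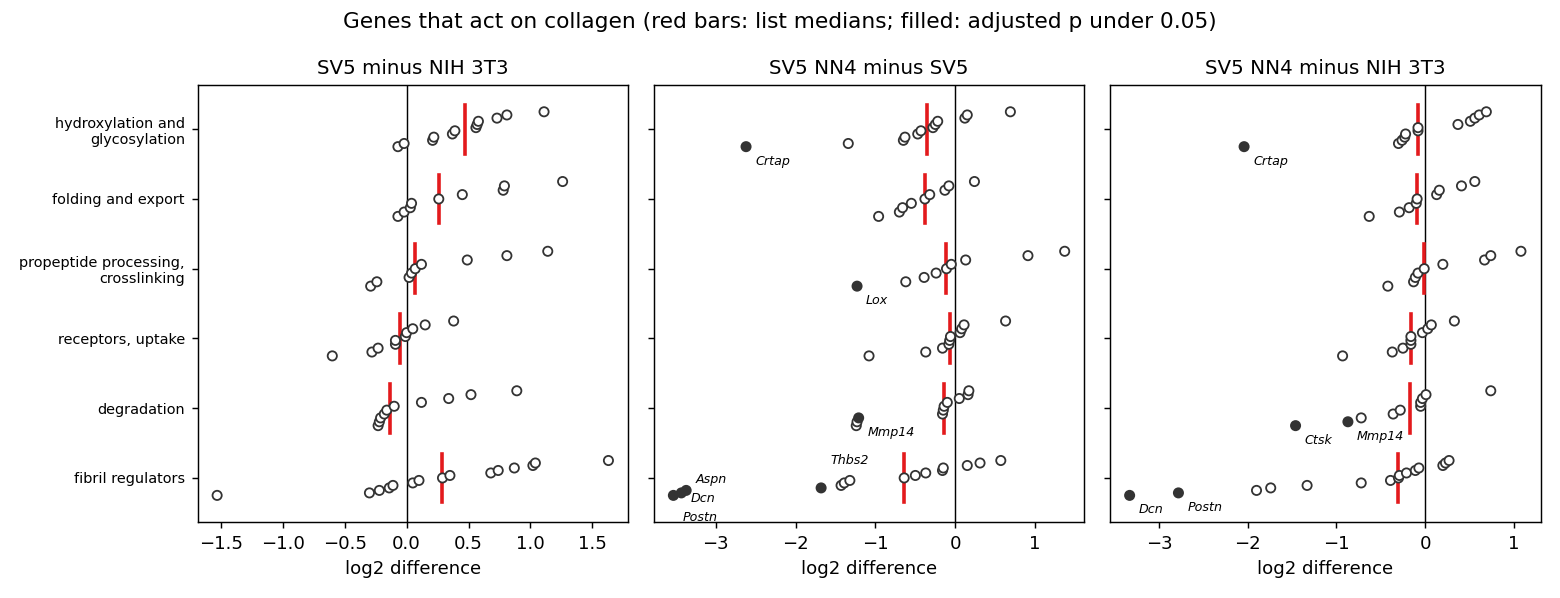
Log2 differences of genes that act on collagen (points, 1 per gene) in 6 lists (rows) and the 3 comparisons (panels, each with its own x range); red bars are list medians and filled points are called. In SV5 NN4 minus SV5 the called points all lie below 0, and in SV5 minus NIH 3T3 no point is filled.

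The summed intensity of the 10 fibroblast markers was 18660 to 25140 in NIH 3T3, 18930 to 26090 in SV5 and 13930 to 20210 in SV5 NN4. The SV5 and SV5 NN4 ranges overlap. Of the 10 markers, 2 were called lower from SV5 to SV5 NN4 and 0 higher (0.678% and 0.371% of all genes): Pdgfra, a growth factor receptor of mesenchymal cells, at -2.1 and Thy1, a surface glycoprotein, at -1.39 (limma, adjusted p = 0.0032 and 0.0056, and 0.17 and 0.023 without the block). Vim, the mesenchymal intermediate filament gene, gave 0.01. Of the 10 markers 8 lay below 0, where 5925 of 12393 genes did. At an unadjusted p under 0.05 in limma's paired fit, 4 were lower and 0 higher (7.33% and 7.32% of all genes). Against NIH 3T3 Pdgfra and Thy1 were called lower too, at -1.2 and -2.09 (limma, adjusted p = 0.022 and 0.0018, and 0.66 and 0.0014 without the block). In that comparison 9 of the 10 markers lay below 0, where 6829 of 12393 genes did. At an unadjusted p under 0.05 in limma's paired fit, 6 were lower and 0 higher (8.04% and 11.3% of all genes). The part of these marker differences in the collagen results was not tested.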

How the data were processed

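RNA from 3 lines, with 3 arrays each, was hybridised to Affymetrix mouse arrays after one-cycle labelling, per the labels' protocols. The deposited intensity values are linear, and the submitters' processing notes name RMA, a method that corrects background, normalizes arrays and summarises probes, with settings not given in the sources used here. In the platform annotation 20393 probe sets had 1 symbol, 691 several and 1606 none. All 36 chain genes were found by gene ID in RefSeq, GRCm38.p6.

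Values were analysed as log2(intensity + 1), without a filter. Differences were fitted in limma 3.58.1 (R 4.3.3) with line and replicate number on 9 arrays, eBayes, and Benjamini-Hochberg adjustment over 22690 probe sets. The replicate block follows the plan for these chains. The labels number the replicates but do not say what equal numbers share. Equal-numbered arrays of different lines correlated at r of 0.26 to 0.84 after group means were removed (across probe sets, which are not replicates). Other pairs correlated at -0.73 to 0.11. The number of arrays limits the precision. The members, chain groups and lists were chosen with earlier results of these data known. Full values went to 10 core chains, all called chains, and the extreme genes of each chain group; of pathway lists, up to 4 called members were named. Alternatives covered the block, samples, pseudocount, filter, scaling, variance trend, probe set rule and single arrays left out.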

Additional observations from a re-analysis of the deposited data

How the results depend on the processing

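The replicate block decided most calls. Without it, 1, 19 and 18 probe sets were called for SV5 minus NIH 3T3, SV5 NN4 minus SV5 and SV5 NN4 minus NIH 3T3, against 14, 196 and 375 with it, and 0 chain genes in each. With the block and only the 2 lines compared, the counts were 0, 1504 and 18 probe sets and 0, 8 and 0 chains called lower. For SV5 minus NIH 3T3, 0 probe sets were called with a pseudocount of 16, median-centred arrays or quantile normalization, and 6 with an intensity trend. From SV5 to SV5 NN4, 2 chains were called lower with a pseudocount of 16 and 2 with quantile normalization, against 4. For SV5 NN4 minus NIH 3T3, where 1 was called, 0 were with a pseudocount of 16 or centred arrays, and 2 with the filter, the trend or probe sets averaged by gene. Probe sets at or above the median level had chain medians of 0.27 and -0.43 in the first 2 comparisons, against 0.04 and -0.16.

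With single arrays left out, called probe sets ranged from 0 to 49, 14 to 950 and 13 to 1239, chains called lower from 0 to 0, 0 to 7 and 0 to 5, and chain medians from -0.08 to 0.09, -0.18 to -0.09 and -0.27 to -0.13. Signs turned in differences that were not called. In SV5 minus NIH 3T3 the single-array ranges that crossed 0 were -0.2 to 0.28 for Col5a1, -0.16 to 0.4 for Col4a1, -0.09 to 0.6 for Col6a2 and -0.35 to 0 for Col4a3; quantile normalization gave -0.07 for Col5a1 and 0 for Col4a1, and averaging probe sets -0.18 for Col4a1. In SV5 NN4 minus SV5 Col11a2 ranged from -0.01 to 0.25. In SV5 NN4 minus NIH 3T3 Col5a2 ranged from -0.12 to 0.2 and Col4a2 from -0.25 to 0.03; Col5a2 gave -0.05 with quantile normalization and -0.32 averaged, and Col4a1 -0.06 averaged. The causes were not tested.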
